A study of Mus musculus with 75 samples.

Results

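The genes followed here are known from blood vessel endothelium, and only some of them from vessel growth. They were taken as a fixed list of 10 symbols: Aplnr, Apln, Pcdh12, Emcn, Itm2a, Kdr, Flt1, Angpt2, Dll4 and Esm1. All 10 were found among the 37310 gene identifiers of the cortex and nuclei files and the 55487 of the hippocampus files. The list was chosen by earlier results on these data, and which of them is not recorded beyond the genes' names. The difference in counts between Dnmt3a1-/- and wild type cortex was treated as the one used, so the values of the 10 genes in that comparison are given as a description and without p-values. Other genes in it, and the 10 genes in the other comparisons, carry p-values from fits over all genes, with the 10 genes chosen with results of these data known. The other comparisons may have been among those results, so counts and p-values of the 10 genes there are no independent test. The wild type tissue comparisons use the same plain wild type cortex libraries.

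The study read messenger RNA in brains of C57BL/6 mice at postnatal day 21 with altered DNMT3A, an enzyme that methylates cytosines of DNA and has the isoforms DNMT3A1 (long) and DNMT3A2 (short). Cerebral cortex was taken from Dnmt3a1-/- (3 libraries), Dnmt3a1_delta_N (3 libraries, a DNMT3A1 without its N-terminal part by its name) and Dnmt3a2-/- mice (2 libraries). Wild type cortex came in 3 numbering series, here called plain (3 libraries), n (3 libraries) and r (2 libraries), which were set against Dnmt3a1-/-, Dnmt3a1_delta_N and Dnmt3a2-/- in that order. The labels do not state this tie. From hippocampus came 3 libraries each of Dnmt3a1-/- and wild type, and from cortical neuron nuclei sorted with an antibody against NeuN 2 of each. The labels name no Cre driver, litter or pooling, and nothing in them says that libraries of a group came from separate mice, so p-values measure the spread between these libraries only. These 26 RNA libraries held 8677149 to 39049155 gene counts each, and the other 49 of the 75 samples were not analysed here.

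New vessels grow by sprouting. Vascular endothelial growth factor, sensed through KDR (VEGFR2) and buffered by FLT1 (VEGFR1), turns some endothelial cells into tip cells that lead a sprout, and DLL4, a ligand of Notch receptors, holds back their neighbours. Tip cells make apelin (Apln) and ESM1, a secreted proteoglycan, while the apelin receptor (Aplnr), a G protein-coupled receptor, sits on growing endothelium, above all of veins and capillaries. ANGPT2 loosens vessels by acting on the receptor TIE2, EMCN (endomucin) is a sialoglycoprotein of venous and capillary endothelium, PCDH12 is a protocadherin of endothelial junctions, and ITM2A is a membrane protein found in brain endothelium among other cells.

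Because the genes divide into a set called lower in cortex without DNMT3A1 and a set not called, the 250 bases before the start of 3 genes of each set are shown first, 5′ to 3′ on the gene's strand, with each CG dinucleotide, the main target of DNMT3A, in capitals. They come from the RefSeq promoter table (GRCm38.p6, a later build than the mm9 of the counts), which matched 7 of the 10 symbols. Aplnr, Pcdh12 and Angpt2 were not matched, so Aplnr and Pcdh12 of the lower set are missing from what follows. Apln (chrX:48034854-48035103, minus strand), Emcn (chr3:137340828-137341077, plus strand) and Itm2a (chrX:107403361-107403610, minus strand) were of the lower set.
Apln: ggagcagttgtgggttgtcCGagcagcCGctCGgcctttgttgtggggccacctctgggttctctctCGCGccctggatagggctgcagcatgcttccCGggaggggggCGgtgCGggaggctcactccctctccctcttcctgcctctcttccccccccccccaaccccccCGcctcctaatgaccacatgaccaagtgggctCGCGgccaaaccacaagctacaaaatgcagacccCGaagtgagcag
Emcn: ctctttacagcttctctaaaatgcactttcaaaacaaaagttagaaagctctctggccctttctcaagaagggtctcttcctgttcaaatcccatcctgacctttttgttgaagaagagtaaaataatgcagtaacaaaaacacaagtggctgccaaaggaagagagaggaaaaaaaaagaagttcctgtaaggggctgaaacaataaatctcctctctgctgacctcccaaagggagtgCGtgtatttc
Itm2a: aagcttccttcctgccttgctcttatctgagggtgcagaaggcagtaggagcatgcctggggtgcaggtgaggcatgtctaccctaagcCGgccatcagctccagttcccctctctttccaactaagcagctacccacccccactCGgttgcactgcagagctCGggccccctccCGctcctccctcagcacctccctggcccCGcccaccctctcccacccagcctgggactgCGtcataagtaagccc
Kdr (chr5:75978456-75978705, minus strand), Flt1 (chr5:147726012-147726261, minus strand) and Dll4 (chr2:119325534-119325783, plus strand) were of the other.
Kdr: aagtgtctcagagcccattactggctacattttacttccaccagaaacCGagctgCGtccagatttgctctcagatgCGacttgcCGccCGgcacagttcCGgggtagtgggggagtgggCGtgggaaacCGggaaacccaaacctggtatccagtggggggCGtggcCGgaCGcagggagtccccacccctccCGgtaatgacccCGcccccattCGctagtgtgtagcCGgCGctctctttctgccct
Flt1: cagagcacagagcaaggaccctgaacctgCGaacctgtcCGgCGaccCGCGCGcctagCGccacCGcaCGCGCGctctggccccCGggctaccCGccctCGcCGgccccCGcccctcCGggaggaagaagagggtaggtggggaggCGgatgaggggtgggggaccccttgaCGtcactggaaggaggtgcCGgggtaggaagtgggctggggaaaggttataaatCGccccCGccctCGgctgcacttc
Dll4: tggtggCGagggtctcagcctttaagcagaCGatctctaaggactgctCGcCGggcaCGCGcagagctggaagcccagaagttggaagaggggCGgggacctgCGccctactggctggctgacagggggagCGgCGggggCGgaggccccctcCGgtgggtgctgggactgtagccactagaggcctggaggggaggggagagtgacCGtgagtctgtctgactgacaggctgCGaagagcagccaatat
Of the lower set, Apln held 12, Emcn 1 and Itm2a 6 CG dinucleotides in this stretch. Of the other set, Kdr held 16, Flt1 23 and Dll4 14. The median of 32851 promoters was 6, with quartiles of 2 and 16. Esm1 held 3.

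A small set of motifs was searched on both strands of these stretches. CAGGAAG, a word found in sites for ETS factors, stood once in Apln, once in Emcn and once in Itm2a, each time as CTTCCTG on the gene's strand. It was not found in Kdr, Flt1, Dll4 or Esm1, and it occurs in 10.8% of all promoters. The shorter GGAA inside this word, or TTCC on the other strand, also stands in the printed stretches of Kdr, Flt1 and Dll4. The absence there holds for the chosen word alone and does not set the genes apart by ETS sites in general. The stretches of 30 bases around CAGGAAG are shown with the motif in capitals.
Apln, first motif base 113 before the start: tccctctccctCTTCCTGcctctcttcccc
Emcn, first motif base 174 before the start: aagaagggtctCTTCCTGttcaaatcccat
Itm2a, first motif base 243 before the start: aagcttcCTTCCTGccttgctcttatctga
TATAAA stood once in Flt1 (12.4% of promoters). ACGTG (16.6% of promoters), a core of hypoxia response elements, and ACAATG (10.7%), a core of SOX sites, were not in any of the 7. These matches describe letters and are no evidence of binding, and DNA methylation at these starts was not analysed here.

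Dnmt3a, the targeted gene, had 73.2, 80.7 and 74.0 CPM (counts-per-million units, relative to all gene counts of a library) in cortex Dnmt3a1-/- libraries 1 to 3 against 152, 165 and 146 CPM in the plain wild type series (log2 fold change -1.02 ± 0.07, adjusted p = 1.2e-05). In hippocampus it stood at 71.5, 76.1 and 72.3 CPM against 162, 149 and 134 CPM (-1.04 ± 0.09, adjusted p = 0.00011). In nuclei it had 382 and 369 CPM in the libraries labelled Dnmt3a1-/- against 405 and 399 CPM, so the count does not bear out that label there. Levels of 132 to 144 CPM in Dnmt3a2-/- and Dnmt3a1_delta_N cortex say little, since reads of exons shared by the isoforms are summed.

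The endothelial label was looked at in wild type samples. NeuN-sorted nuclei, which should hold few endothelial cells, had less than plain wild type cortex of each of the 9 genes tested there by edgeR at an adjusted p under 0.05, where 41.8% of all genes were called lower. Aplnr, Emcn, Pcdh12 and Angpt2 passed the filter on low counts in this fit only through cortex, where they are higher. Their direction was thus fixed by the filter, and the count is no test of the label. The log2 differences (± SE, n = 2 against 3) ran from -2.36 ± 0.25 for Dll4 (adjusted p = 4.8e-06) to -7.55 ± 0.27 for Flt1 (adjusted p = 2.1e-09). Flt1 stood at 1.93 and 0.76 CPM in wild type nuclei against 216, 206 and 195 CPM in cortex. Aplnr stood at 0.34 and 0.28 CPM against 8.14, 5.48 and 5.23 CPM (log2 difference -4.62 ± 0.30, given as a description). Pcdh12 had 2 reads and 0 reads in the wild type nuclei libraries. Dll4 stood apart, at 3.01 and 3.45 CPM in nuclei against 18.4, 12 and 9.62 CPM. All 23 of 23 pan-endothelial markers were called lower in nuclei too, and their summed level was 27.9 to 33.7 CPM against 721 to 947 CPM in cortex. In the fit of nuclei libraries alone 19 of the 23 passed the filter. The others entered here only through cortex, so this count is no test either. Nuclei and whole tissue also differ in preparation, and the part of each cannot be told apart.

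**Figure D1:**
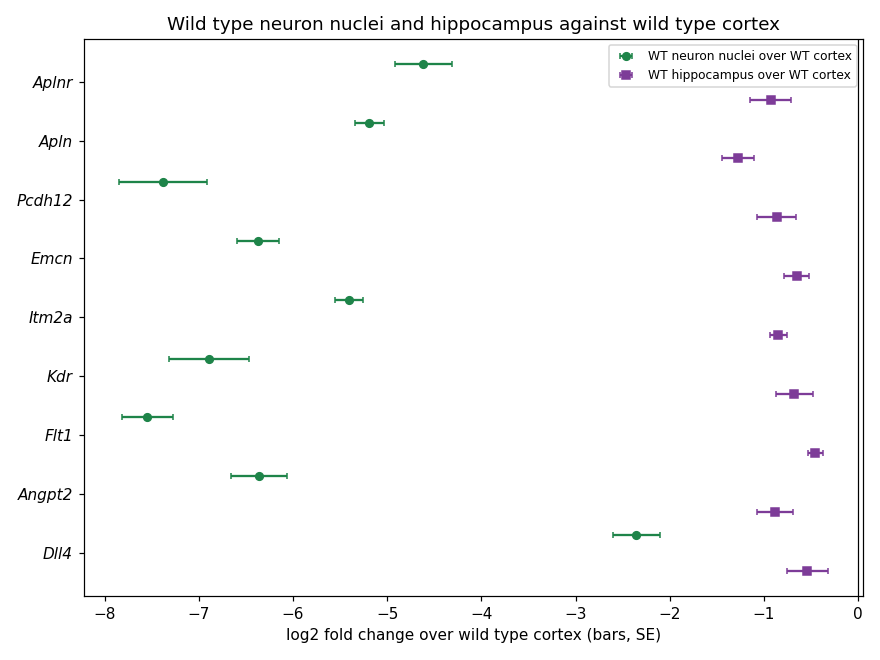
Log2 fold change of 9 genes in wild type neuron nuclei (circles, n = 2) and wild type hippocampus (squares, n = 3) over the plain wild type cortex series (n = 3), with SE bars. All 9 genes lie at -2.36 or below in nuclei, with Dll4 nearest to 0, and between -1.27 and -0.45 in hippocampus.

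Wild type hippocampus held less of most of these genes than plain wild type cortex: 8 of 9 tested genes were called lower, where 23.2% of all genes were. The list is taken to have been chosen with these plain libraries, which favours genes high in them, so nothing is read from this count. General endothelial genes were also lower against the plain series: 16 of 23 pan-endothelial markers (median log2 difference -0.43) and 14 of 24 genes of endothelial transport and barrier (median -0.43) were called lower. The summed pan-endothelial level, 586 to 725 CPM in hippocampus, overlapped the r series (647 to 709 CPM) and the n series (677 to 908 CPM). The summed transport and barrier level, 1657 to 1784 CPM, overlapped the r series (1743 to 1819 CPM) but not the n series (2002 to 2363 CPM). Apln had 38.6, 25.7 and 23.8 CPM in hippocampus against 75.8, 57.8 and 65.9 CPM, a log2 difference of -1.27 ± 0.17 (SE, n = 3 against 3, adjusted p = 0.00031). Itm2a stood at 118, 107 and 114 CPM against 222, 183 and 177 CPM (-0.85 ± 0.09, adjusted p = 2e-05). These 2 genes were also called against the r series (Apln -1.31, Itm2a -0.35) and the n series (Apln -1.19, Itm2a -0.80), and the other 6 calls were made against the plain series alone. Of all genes, 3985 of 15024 were called lower against the r series and 3623 of 15186 against the n series. Nothing is read from 2 of 9 beside these. Against the r series Dll4 was higher in hippocampus by 0.43 ± 0.18 (adjusted p = 0.064) and Flt1 by 0.09 ± 0.10 (adjusted p = 0.47). As a share of the summed pan-endothelial CPM, Apln was 4.56% ± 0.67 (SD, n = 3) in hippocampus and 8.25% ± 0.79 in plain wild type cortex. Its share was 7.99% ± 0.11 in the n series and 10.1% ± 1.1 (n = 2) in the r series.

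The cortex without DNMT3A1 had less RNA of the apelin receptor, its ligand and 3 further endothelial genes. Of 9 genes that passed the filter, 5 were called and all 5 were lower (Aplnr, Apln, Pcdh12, Emcn and Itm2a). Of all 15933 genes 17.9% were called and 8.91% were called lower. The choice of the genes is taken to have used this comparison, so nothing is read from this count. The tenth gene, Esm1, had 2 to 9 reads in plain wild type libraries and 8 to 11 reads in Dnmt3a1-/- libraries and did not pass the filter.

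Aplnr (ENSMUSG00000044338) had 2.13, 1.10 and 1.67 CPM in Dnmt3a1-/- libraries 1, 2 and 3 and 8.14, 5.48 and 5.23 CPM in wild type, from 25 to 44 and 93 to 199 reads. No mutant library reached the lowest wild type library. The log2 fold change was -2.02 ± 0.23 (SE, n = 3 against 3), and within numbers the mutant held 0.202 to 0.319 of the wild type level.

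Apln (ENSMUSG00000037010), which codes for the receptor's peptide ligand, stood at 36.1, 32.1 and 37.1 CPM against 75.8, 57.8 and 65.9 CPM, again without overlap (log2 fold change -0.93 ± 0.10). Apela, which codes for the other ligand of the receptor, had between 0 and 0.08 CPM in all cortex libraries. It did not pass the filter.

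Pcdh12 (ENSMUSG00000024440) stood at 1.53, 1.10 and 1.06 CPM against 5.24, 3.88 and 4.39 CPM (-1.93 ± 0.20). Emcn (ENSMUSG00000054690) had 13.5, 14 and 16.0 CPM against 27.7, 20.7 and 21.2 CPM (-0.67 ± 0.12). Itm2a (ENSMUSG00000031239) stood at 136, 133 and 136 CPM against 222, 183 and 177 CPM (-0.52 ± 0.08). For each of these 5 genes all mutant libraries lay below all wild type libraries, as they did for 17.7% of all genes tested.

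The growth factor receptors and the other sprouting genes overlapped between the groups. Kdr (ENSMUSG00000062960) had 89.6, 89.1 and 66.0 CPM against 117, 89.4 and 78.5 CPM (-0.23 ± 0.17). Flt1 (ENSMUSG00000029648) stood at 206, 247 and 193 CPM against 216, 206 and 195 CPM (0.06 ± 0.08). Angpt2 (ENSMUSG00000031465) stood at 6.73, 8.42 and 6.94 CPM against 9.08, 7.27 and 7.26 CPM (-0.09 ± 0.13), and Dll4 (ENSMUSG00000027314) at 13.8, 13.6 and 8.50 CPM against 18.4, 12 and 9.62 CPM (-0.19 ± 0.28). Kdr was lower in 3 of 3 numbers, and Flt1, Angpt2 and Dll4 in 2 of 3.

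With the replicate number as a block, Kdr was also called lower, at -0.21 ± 0.06, which makes 6 of 9 (31% of all genes were called in that fit, 16% lower). With all 8 wild type cortex libraries as control, 3 of 9 were called: Aplnr (-1.84), Apln (-0.90) and Pcdh12 (-1.64), but not Emcn (-0.42) or Itm2a (-0.39). In that fit 3109 of 16415 genes were called, 1544 of them lower. Angpt2 (0.22) and Dll4 (0.19) were then on the higher side.

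**Figure D2:**
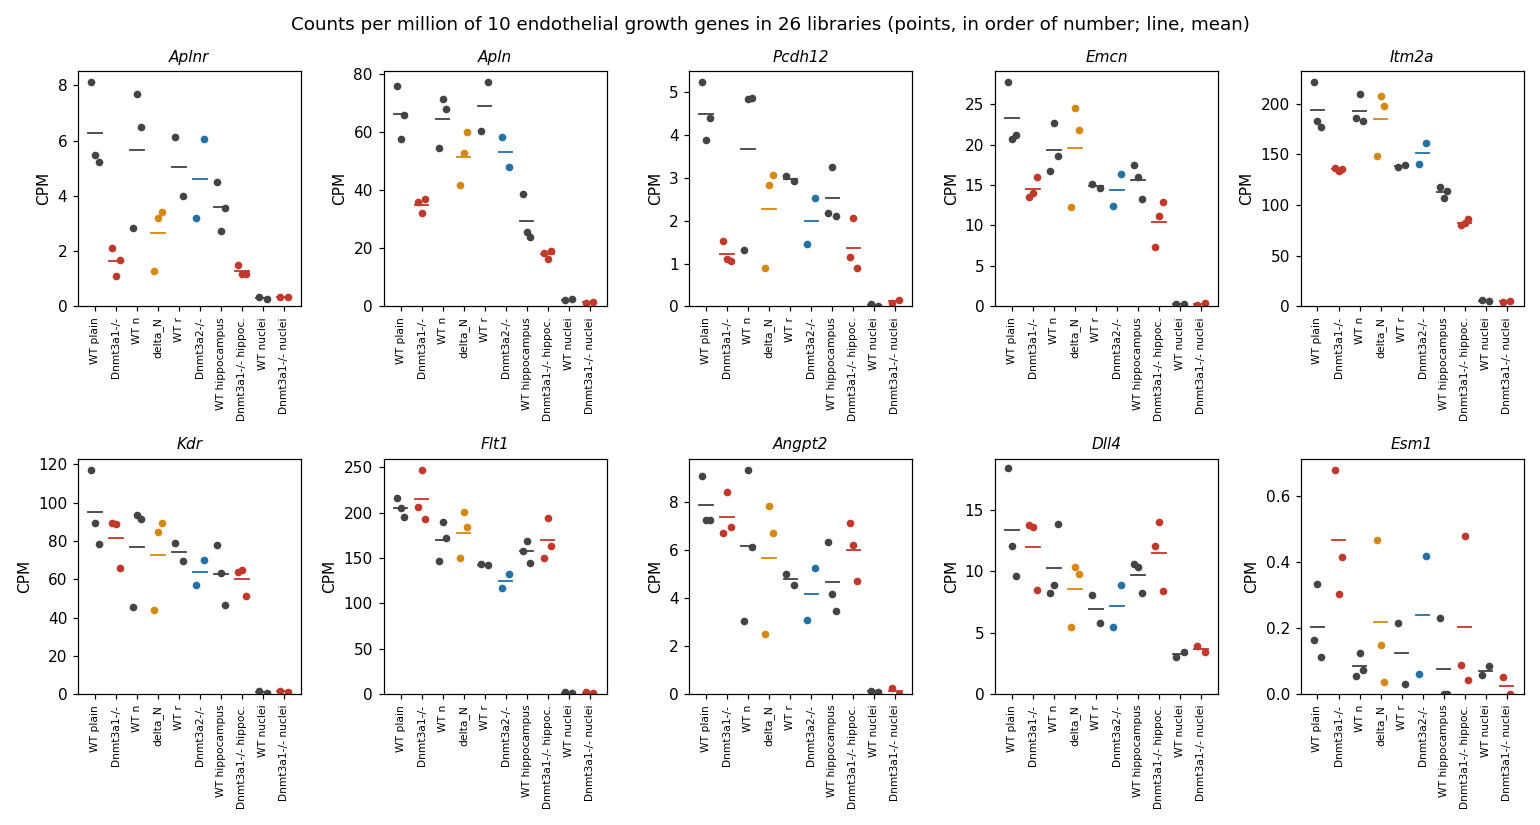
CPM of each of the 10 genes (panels, axes from 0) in the 10 groups, with 1 point per library and a line at the group mean; grey is wild type, red Dnmt3a1-/-, orange Dnmt3a1_delta_N and blue Dnmt3a2-/-. In cortex, Dnmt3a1-/- lies below its wild type series in Aplnr (1.10 to 2.13 against 5.23 to 8.14 CPM) and Apln, and overlaps it in Kdr, Flt1, Angpt2 and Dll4, and the nuclei are near 0 in most panels.

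In bulk tissue, fewer endothelial cells and less RNA per endothelial cell cannot be told apart, so the genes were set against general endothelial markers. The summed level of 23 pan-endothelial markers was 763 to 926 CPM in cortex Dnmt3a1-/- and 721 to 947 CPM in the plain wild type series, and none of the 23 was at 0 in any of these libraries. Relative to that sum Aplnr was 0.196% ± 0.068 (SD, n = 3) against 0.769% ± 0.078, a log2 ratio of -1.97. Apln was 4.18% against 8.25% (-0.98), and Pcdh12 was 0.146% against 0.557% (-1.93). Flt1 was 25.4% against 25.6% (-0.02). On this scale Kdr was 9.58% against 11.7% and Angpt2 was 0.869% against 0.974%, both without overlap between the groups. The share of all genes without overlap on this scale was not counted, so nothing is read from that.

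**Figure D3:**
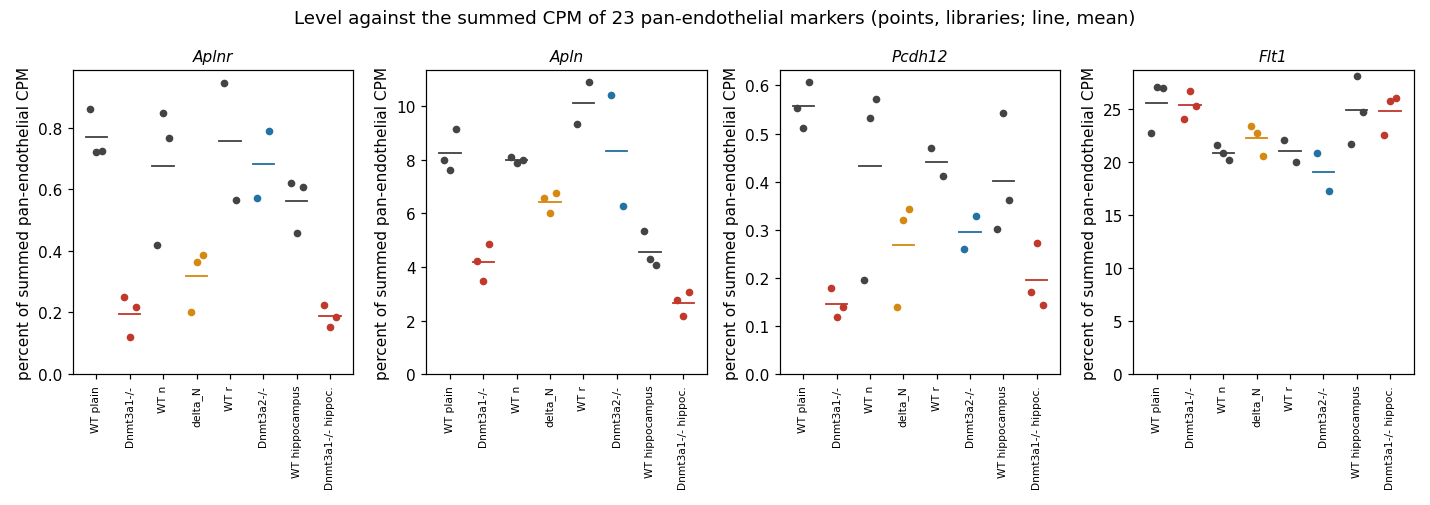
CPM of Aplnr, Apln, Pcdh12 and Flt1 as a percentage of the summed CPM of 23 pan-endothelial markers (axes from 0), 1 point per cortex or hippocampus library and a line at the group mean. Dnmt3a1-/- lies below wild type in Aplnr (0.196% against 0.769% in cortex, 0.188% against 0.561% in hippocampus), and Flt1 overlaps.

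Other genes of the same pathways were counted over lists written with earlier results known, and each count stands against the 17.9% of all genes called in this fit and the 8.91% called lower. Of 8 other genes of the VEGF pathway 1 was called lower and none higher (median log2 fold change -0.18, against 0.01 over all genes). It was Nrp1, a co-receptor of VEGF and semaphorins, at -0.44 ± 0.07 (adjusted p = 0.0019), read at 45.4, 46.6 and 50.2 CPM against 71.0, 62.2 and 59.5 CPM. Vegfa, the growth factor itself, was at -0.16 ± 0.10 (adjusted p = 0.29).

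Of 4 tested genes around the angiopoietin receptors 2 were called lower (median -0.27). Tie1, an orphan receptor that works with TIE2, fell by 0.49 ± 0.10 (adjusted p = 0.0056), and Tek, which codes for TIE2, fell by 0.34 ± 0.10 (adjusted p = 0.03). Of 13 genes of endothelial Notch signalling 1 was called higher and none lower (median 0.15). It was Notch4, an endothelial Notch receptor, at 0.34 ± 0.10 (adjusted p = 0.027).

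Of 16 tested genes of sprouts and young vessels 4 were called lower and 1 higher (median -0.22). Ramp3, a co-receptor for adrenomedullin, fell by 0.45 ± 0.10 (adjusted p = 0.0065), Unc5b, a netrin receptor, by 0.32 ± 0.09 (adjusted p = 0.021) and Cd34 by 0.29 ± 0.07 (adjusted p = 0.012). Igfbp3, a secreted binding protein of insulin-like growth factors, went the other way: it stood at 85.8, 116 and 129 CPM against 41.1, 38.2 and 49.8 CPM and rose by 1.36 ± 0.18 (adjusted p = 0.0042).

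Of 23 pan-endothelial markers 2 were called lower and 1 higher (median -0.04), a share close to that of all genes. Cd93, a C-type lectin-like receptor of endothelium, fell by 0.88 ± 0.10 (adjusted p = 0.00015), Ushbp1 by 0.50 ± 0.14 (adjusted p = 0.025), and Ly6a rose by 0.25 ± 0.08 (adjusted p = 0.045). Of 24 genes of brain endothelial transport and barrier 5 were called higher and 4 lower (median 0.07). Slc38a5, an amino acid transporter, fell by 1.28 ± 0.22 (adjusted p = 0.0062), while Slc16a1, the monocarboxylate transporter MCT1, rose by 0.88 ± 0.14 (adjusted p = 0.0055). Reck, a co-receptor for WNT7 ligands, rose by 0.65 ± 0.17 (adjusted p = 0.026) and Itih5 by 0.63 ± 0.08 (adjusted p = 0.00027).

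Markers of other cells were measured beside these genes. Of 14 tested mural cell markers 1 was called, Rgs5 of pericytes, which fell by 0.59 ± 0.11 (adjusted p = 0.0055), and the summed mural level was 638 to 688 CPM in Dnmt3a1-/- against 726 to 1033 CPM. Of 28 cell division genes 9 were called lower and none higher (median -0.45), among them Ube2c (-1.28 ± 0.41, adjusted p = 0.046), Kif20a (-1.19 ± 0.38, adjusted p = 0.045), Mki67 (-1.09 ± 0.16, adjusted p = 0.00068) and Top2a (-1.05 ± 0.16, adjusted p = 0.0011). Of 17 hypoxia-induced genes 3 were called higher and 4 lower (median -0.04), the largest being P4ha1, a collagen prolyl hydroxylase, which fell by 0.65 ± 0.09 (adjusted p = 0.00058). The summed level of 6 blood cell markers was 338 to 521 CPM against 523 to 828 CPM, that of 10 neuron markers 4154 to 4428 CPM against 4612 to 5176 CPM, and that of 13 choroid plexus markers 1412 to 2843 CPM against 566 to 1454 CPM, which overlap. Of these, 1 blood marker of 6, 5 neuron markers of 10 and 0 choroid plexus markers of 13 were called, each of the called ones lower. None of these marker genes was at 0 in all libraries of a group in cortex. The part of these other cells in the results was not tested.

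In hippocampus, Aplnr and Itm2a fell without DNMT3A1, and Apln, Pcdh12 and Emcn lay on the same side without passing. Of 9 tested genes 2 were called, both lower, where 2.52% of all genes were called and 0.827% lower. Which results chose the list is not recorded, so this comparison may have been used too, and the count is no independent test. Aplnr had 1.5, 1.16 and 1.16 CPM against 4.5, 2.75 and 3.55 CPM in wild type and fell by a log2 fold change of 1.5 ± 0.26 (SE over 3 mutant and 3 wild type libraries, adjusted p = 0.01). Itm2a stood at 80.3, 82.1 and 85.9 CPM against 118, 107 and 114 CPM and fell by 0.47 ± 0.09 (adjusted p = 0.013). All 3 mutant libraries lay below all 3 wild type libraries for both.

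Apln had 18.5, 16.2 and 19.2 CPM against 38.6, 25.7 and 23.8 CPM (-0.70 ± 0.17, adjusted p = 0.051). Pcdh12 stood at 1.14, 2.05 and 0.90 CPM against 2.19, 3.25 and 2.12 CPM (-0.96 ± 0.32, adjusted p = 0.13). Emcn had 7.30, 11.1 and 13 CPM against 17.5, 15.9 and 13.3 CPM (-0.55 ± 0.19, adjusted p = 0.16). These 3 also had no overlap between the groups, which makes 5 of 9 genes, where 8.34% of all genes were lower without overlap. Without the filter on low counts all 5 were called, and without Dnmt3a1-/- library 2 none was (Aplnr adjusted p = 0.055, Itm2a adjusted p = 0.081). Of all genes, 1039 of 31185 and 86 of 15970 were called in these fits, in that order.

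The receptors and ligands of VEGF and Notch signalling did not follow them. Kdr was at -0.08 ± 0.16 (adjusted p = 0.84) and Flt1 at 0.09 ± 0.11 (adjusted p = 0.71). Angpt2 stood at 7.13, 6.22 and 4.69 CPM against 6.34, 4.15 and 3.48 CPM, with overlap between the groups, and did not pass (0.37 ± 0.23 in log2, adjusted p = 0.42). Dll4 likewise overlapped and did not pass (0.21 ± 0.17, adjusted p = 0.58). Esm1 had 0 to 7 reads per library and was not tested.

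The summed pan-endothelial level was 627 to 753 CPM in Dnmt3a1-/- hippocampus and 586 to 725 CPM in wild type. Relative to it Aplnr was 0.188% ± 0.035 (SD, n = 3) against 0.561% ± 0.09, a log2 ratio of -1.58, Itm2a was 12.2% against 17.9% (-0.55), and Flt1 was 24.8% against 24.9% (-0.01). Of the 23 pan-endothelial markers 1 was called, Cd93, which fell by 0.55 ± 0.13 (adjusted p = 0.04). Of 24 transport and barrier genes 3 were called higher, among them Slc16a1 (0.86 ± 0.15, adjusted p = 0.016) and Itih5 (0.46 ± 0.10, adjusted p = 0.027), and 1 lower. No VEGF, Tie, Notch or sprouting gene was called there by edgeR. Tie1 had an adjusted p of 0.064 at -0.39 ± 0.10. Rgs5 fell by 0.48 ± 0.11 (adjusted p = 0.035), and the summed mural level was 507 to 564 CPM against 603 to 701 CPM. Blood cell markers overlapped (266 to 372 against 349 to 672 CPM), and choroid plexus markers spanned 222 to 2850 CPM in the mutant against 289 to 370 CPM. Their part was not tested.

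Whether the effect of the mutation differed between hippocampus and cortex was tested as an interaction on the shared identifiers, and 0 of 9 genes were called. This was 0% of 15433 genes, of which 777 had an unadjusted p under 0.05, and without the filter on low counts the same test called 3. The cortex part of this contrast is taken to have been used to choose the genes. That favours a less negative effect in hippocampus, so the differences are a description. The effect on Pcdh12 was less negative in hippocampus by 0.95 ± 0.39 (adjusted p = 0.91) and that on Aplnr by 0.52 ± 0.38 (adjusted p = 0.98). Differences for Apln (0.23 ± 0.21), Emcn (0.14 ± 0.25) and Itm2a (0.06 ± 0.12) were smaller.

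**Figure D4:**
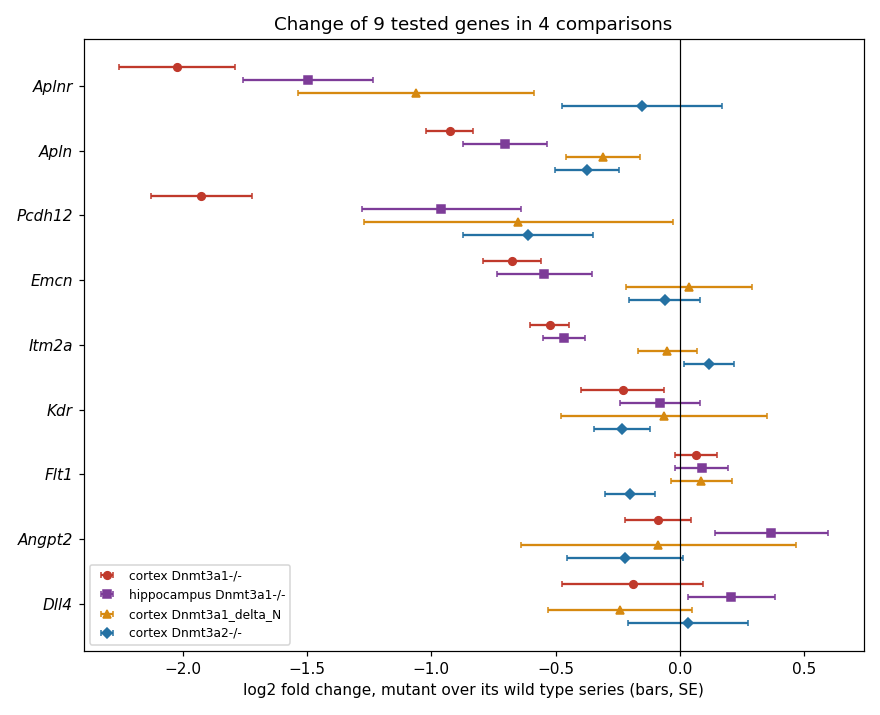
Log2 fold change with SE bars of the 9 tested genes (rows) in cortex Dnmt3a1-/- (circles), hippocampus Dnmt3a1-/- (squares), cortex Dnmt3a1_delta_N (triangles) and cortex Dnmt3a2-/- (diamonds), each over its own wild type series. Aplnr lies at -2.02, -1.5, -1.06 and -0.15 in that order, while Flt1 lies between -0.20 and 0.09.

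Cortex with DNMT3A1 lacking its N-terminal part showed lower Aplnr within each number, on a wide spread between numbers. Aplnr had 1.28, 3.21 and 3.43 CPM in Dnmt3a1_delta_N libraries 1 to 3 and 2.84, 7.68 and 6.51 CPM in the n series, so the groups overlapped only through wild type library 1. The mutant held 0.418 to 0.527 of the wild type level within numbers. Apln stood at 42.0, 52.9 and 60.0 CPM against 54.7, 71.4 and 68.1 CPM, with ratios of 0.741 to 0.881. Pcdh12 had 0.90, 2.82 and 3.07 CPM against 1.32, 4.84 and 4.86 CPM, with ratios of 0.583 to 0.679.

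Without the number as a block, 0 of the 9 genes were called, as were 0% of 15881 genes by edgeR (1267 had an unadjusted p under 0.05, and DESeq2 called 44 genes, none of them among the 9). The log2 fold changes were -1.06 ± 0.47 for Aplnr (SE, n = 3 against 3, adjusted p = 0.66), -0.31 ± 0.15 for Apln (adjusted p = 0.67) and -0.65 ± 0.62 for Pcdh12 (adjusted p = 0.86). With the block, 2 of 9 were called lower, where 0.749% of all genes were called and 0.542% lower. They were Aplnr at -1.09 ± 0.14 (adjusted p = 0.0051, lower in 3 of 3 numbers) and Apln at -0.32 ± 0.07 (adjusted p = 0.043, lower in 3 of 3 numbers). Pcdh12 was at -0.68 ± 0.16 in that fit (adjusted p = 0.068). That the numbers pair libraries here was read from the data, not from the labels. This comparison may also have been among the results that chose the list, so nothing is read from the 2 of 9. Without the libraries numbered 1 of both groups, Aplnr was called at -1.09 (adjusted p = 0.021) with no block, where 16 of 15908 genes were called.

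**Figure D5:**
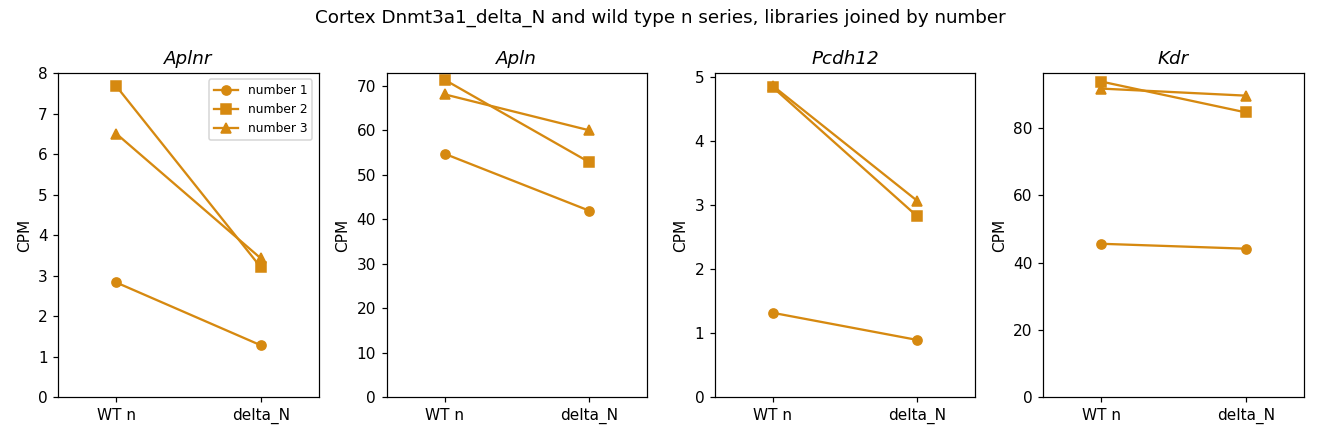
CPM (axes from 0) of Aplnr, Apln, Pcdh12 and Kdr in the wild type n series and Dnmt3a1_delta_N cortex, with a line joining libraries of the same number. All 3 lines fall in Aplnr, Apln and Pcdh12, and the libraries numbered 1 lie lowest, also in Kdr (45.6 and 44.1 CPM).

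Emcn and Itm2a, which were lower in cortex Dnmt3a1-/-, were not so here. Emcn stood at 12.3, 24.5 and 21.8 CPM against 16.7, 22.7 and 18.5 CPM (0.04 ± 0.26, adjusted p = 0.99). Itm2a had 149, 207 and 198 CPM against 186, 210 and 183 CPM (-0.05 ± 0.12, adjusted p = 0.95). Kdr (-0.06 ± 0.41), Flt1 (0.09 ± 0.12), Angpt2 (-0.09 ± 0.55) and Dll4 (-0.24 ± 0.29) did not pass either. Kdr stood at 44.1, 84.6 and 89.6 CPM against 45.6, 93.8 and 91.7 CPM and Angpt2 at 2.49, 7.82 and 6.72 CPM against 3.06, 9.34 and 6.14 CPM, so library 1 of both groups was low in these genes also. Relative to the summed pan-endothelial level, Aplnr was 0.317% ± 0.101 (SD, n = 3) against 0.677% ± 0.227 and Apln was 6.44% ± 0.39 against 7.99% ± 0.11, both without overlap. How many of all genes lack overlap on this scale was not counted, so nothing is read from that. The summed level itself was lowest in library 1 of both groups, at 639 and 677 CPM.

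The effect of the truncation and that of the loss of DNMT3A1 were compared as an interaction, each against its own series, and 0 of 10 genes were called (0.103% of all genes). The Dnmt3a1-/- part of this contrast is taken to have been used to choose the genes. That favours a positive difference, so the values are a description and nothing is read from the calls in any of these fits. The effect of the truncation was less negative by 0.96 ± 0.65 for Aplnr (adjusted p = 0.63), by 0.62 ± 0.21 for Apln (adjusted p = 0.32) and by 1.28 ± 0.77 for Pcdh12 (adjusted p = 0.58). For Emcn the difference was 0.72 ± 0.33 (adjusted p = 0.45) and for Itm2a 0.48 ± 0.16 (adjusted p = 0.3). With numbers as a block within each mutant and its series, 2 of 10 were called, where 2.91% of all genes were: Apln (0.60 ± 0.10, adjusted p = 0.0049) and Pcdh12 (1.21 ± 0.24, adjusted p = 0.014). Aplnr was then at 0.87 ± 0.23 (adjusted p = 0.055). Without Dnmt3a1_delta_N library 1, Emcn (0.96, adjusted p = 0.03) and Itm2a (0.62, adjusted p = 0.021) were called in place of Apln and Pcdh12. In that fit 184 of 16715 genes were called.

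Loss of the short isoform left Aplnr without a common direction. It stood at 3.20 and 6.05 CPM in Dnmt3a2-/- libraries 1 and 2 against 6.12 and 4.0 CPM in the r series (-0.15 ± 0.32, n = 2 against 2). Apln stood at 58.4 and 48.1 CPM against 60.4 and 77.4 CPM (-0.38 ± 0.13) and Pcdh12 at 1.46 and 2.52 CPM against 3.04 and 2.91 CPM (-0.61 ± 0.26). None of the 9 tested genes was called by edgeR, each with an adjusted p of 1, and 1 gene in all was (0.00628%), with 457 genes at an unadjusted p under 0.05 and 7 called by DESeq2, none of these among the 9. Apln, Pcdh12 and Flt1 lay below both wild type libraries, as did 12.7% of all genes, and Itm2a above both, as did 14.8%.

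In nuclei labelled Dnmt3a1-/- 7 of the 10 genes passed the filter and 0 were called by edgeR, where 0.246% of genes were and 0.0315% were called lower (1425 genes had an unadjusted p under 0.05, and DESeq2 called 70 genes, none of them a gene of the list). Aplnr stood at 0.33 and 0.36 CPM against 0.34 and 0.28 CPM, from 9 to 13 reads per library. Apln had 1.31 and 1.54 CPM against 2.10 and 2.37 CPM, with an adjusted p of 0.5 at -0.66 ± 0.28. Pcdh12 had 0 to 4 reads and did not pass the filter, so nothing can be said of a difference in it here.

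Genes that varied most like Aplnr within groups were ranked by Pearson's r of log2 CPM deviations from the group mean, over 22 cortex and hippocampus libraries in 8 groups and 13947 genes. The 10 highest were Casq2 (r = 0.905), Meox1 (0.894), Prnd (0.879), Tnfrsf19 (0.876), Rflnb (0.875), Olfml3 (0.869), Adamtsl2 (0.865), Nid1 (0.865), Dok4 (0.861) and Mtg2 (0.858). The libraries share depth, dissection and the makeup of cells, and the libraries numbered 1 of the n series and of Dnmt3a1_delta_N lay farthest from their means, at -0.88 and -0.90. Without these 2 libraries, r was 0.766 to 0.861 for the same 10 genes. Among the listed vessel genes, r was 0.818 for Angpt2 (rank 29), 0.793 for Kdr (rank 70), 0.753 for Pcdh12 (rank 129) and 0.734 for Itm2a (rank 174). It was 0.616 for Dll4 (rank 593), 0.57 for Emcn (rank 869), 0.516 for Apln (rank 1242) and 0.414 for Flt1 (rank 2108). Without the same 2 libraries r was 0.665 for Angpt2, 0.624 for Kdr, 0.532 for Pcdh12 and 0.668 for Itm2a. It was then 0.497 for Dll4, 0.37 for Emcn, 0.332 for Apln and 0.086 for Flt1, so the values and part of the order rest on those libraries. Of the 10 most alike genes, 5 were called lower in cortex Dnmt3a1-/-, where 8.91% of all genes were: Prnd, which codes for the prion-like protein doppel, fell by 1.54 ± 0.25 (adjusted p = 0.0013), Meox1, a homeobox gene, by 0.80 ± 0.23 (adjusted p = 0.03), and Olfml3 (-0.76 ± 0.12), Adamtsl2 (-0.72 ± 0.11) and Dok4 (-0.55 ± 0.11) at adjusted p of 0.001 to 0.0048. In hippocampus Olfml3 (-0.89 ± 0.13, adjusted p = 0.0043) and Adamtsl2 (-0.77 ± 0.18, adjusted p = 0.04) were called lower, where 0.827% of all genes were, and Prnd was not tested.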

How the data were processed

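Per the labels' protocols, a stranded kit for mRNA was used for the RNA libraries. Per the submitters' processing notes, STAR 2.5.4a, HTSeq 0.11.0 and build mm9 were used. The deposited values are counts of reads per gene, 1 library per file, with no normalization by the authors recorded. The annotation release and the strand setting are not given in the sources used here, so antisense and overlapping genes may share reads. Lines naming no gene held 21.14% to 36.97% of reads and were left out. No column was unmatched (0 left out).

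Identifiers were given symbols from the supplied name table. Low genes were removed by filterByExpr, library sizes scaled by TMM, and genes tested with edgeR 4.0.16 (R 4.3.3): robust quasi-likelihood fit, 1 mean per group, F-test, Benjamini-Hochberg adjustment over all genes, called at an adjusted p under 0.05. The SE was computed from the log2 fold change and F (absolute value over sqrt(F)). The fit was tested on simulated data. DESeq2 1.42.0 was an alternative, beside other scaling, no filter, a replicate block, sex, other wild type series and each library left out.

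The genes, and the 17 other lists with 212 genes, were chosen with earlier results of these data known. Named beside the 10 genes are Dnmt3a, up to 4 called genes per list with the largest change in cortex Dnmt3a1-/-, the 10 genes most like Aplnr, and Vegfa, Apela, Slc16a1, Itih5 and Tie1 in hippocampus, which were chosen after their values were seen. Other lists were counted in cortex Dnmt3a1-/-: astrocyte (4 higher, 1 lower of 7), microglia (0 and 1 of 9), myelin (2 and 0 of 6), meningeal fibroblast (0 and 2 of 7), neuron (0 and 5 of 10), blood (0 and 1 of 6) and choroid plexus markers (0 and 0 of 13).

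Whether equal numbers pair libraries was checked on deviations from group means, correlated over all genes. For cortex Dnmt3a1-/- and its series r was 0.23, 0.393 and 0.18, and for Dnmt3a1_delta_N 0.369, 0.256 and 0.451, so numbers were taken to pair libraries there. By Xist and Y-linked reads, same-numbered libraries of a comparison shared their sex.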

Additional observations from a re-analysis of the deposited data

How the results depend on the processing

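The 5 calls in cortex Dnmt3a1-/- were kept without any 1 library (5 to 5 called) and fell to 3 with all 8 wild type libraries. In hippocampus 2 genes were called, 5 with no filter on low counts, and 0 to 3 without 1 library. In Dnmt3a1_delta_N, where 0 were called, 2 were with the replicate block and 1 with both libraries numbered 1 left out, an alternative chosen after seeing the data. In the difference between Dnmt3a1_delta_N and Dnmt3a1-/-, 2 were called with the replicate block within each mutant and its series, also chosen after seeing the data, and 0 to 2 without 1 library. Wild type hippocampus had 2 called against the r series and 2 against the n series, against 8, and 7 to 9 without 1 library. The 9 calls in nuclei against cortex held in each alternative run. All calls in hippocampus Dnmt3a1-/- rose from 396 to 1039 genes with no filter and fell to 246 with the replicate block, where Aplnr stayed called (adjusted p = 0.016). Same-numbered hippocampus libraries correlated at -0.025, 0.314 and 0.054, so no pairing was taken there. In Dnmt3a2-/- and nuclei, with 2 numbers each, the block, which is also a term for sex, raised all calls from 1 to 55 and from 39 to 740 with 0 of the listed genes.

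Signs changed mostly for differences that were not called, the exception being Flt1 in wild type hippocampus, called at -0.45 against the plain series. In cortex Dnmt3a1-/- without 1 library Flt1 ran from -0.057 to 0.119, Angpt2 from -0.211 to 0.009 and Dll4 from -0.357 to 0.089, and with all 8 wild type libraries Angpt2 was 0.219 and Dll4 0.186. In hippocampus Kdr ran from -0.255 to 0.095 and Flt1 from -0.024 to 0.182. In Dnmt3a1_delta_N Kdr ran from -0.336 to 0.197, Flt1 from -0.013 to 0.2, Angpt2 from -0.426 to 0.349, Dll4 from -0.398 to 0.028, Emcn from -0.148 to 0.28 and Itm2a from -0.127 to 0.087. There Emcn was -0.003 with the replicate block and -0.011 with all 8 wild type libraries, and Itm2a was 0.036 with all 8 and 0.057 with both libraries numbered 1 left out. Aplnr in Dnmt3a2-/- ran from -0.65 to 0.242. The difference between hippocampus and cortex ran from -0.087 to 0.327 for Emcn and from -0.034 to 0.111 for Itm2a. Against the r series wild type hippocampus was at 0.085 for Flt1 and 0.433 for Dll4 (-0.54 against the plain series). The cause was not tested. Few reads limit Pcdh12 and Esm1 most.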
